A study of Mus musculus with 6 samples.

Results

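Fibroblast growth factors (FGFs), their receptors and the co-receptor beta-Klotho were followed in brown adipose tissue, the heat-producing fat of small mammals. The group holds 10 genes of the 45777 in the count table, taken by symbol: the ligands Fgf16, Fgf9, Fgf1, Fgf2, Fgf10 and Fgf21, the intracellular factor Fgf13, the receptors Fgfr1 and Fgfr2, and Klb. The genes were picked by hand with earlier results of the same comparison known, a large difference of Fgf16 among them, so their differences between groups are given as a description and support nothing by themselves. The samples were brown fat of male wild-type C57Bl6/J mice given PBS (phosphate-buffered saline, the control group) or Rb2, a ginsenoside (a steroid-like saponin of ginseng), by intraperitoneal injection over 2 weeks, in 3 mice per group. The sources used here give neither dose nor age. Libraries are named by the number in their column of the table: PBS 1, 2 and 4, and Rb2 1, 3 and 4.

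FGFs are secreted proteins that bind receptor tyrosine kinases on the cell surface. Paracrine members such as FGF1, FGF2, FGF9, FGF10 and FGF16 act near their source with heparan sulfate as a cofactor, while the endocrine FGF21 circulates and needs beta-Klotho beside a receptor, chiefly FGFR1 in fat. FGF21 is known for its induction in brown fat by cold and for its action on heat production, and Fgf16 is a known transcript of brown fat. FGF13 is a homologous factor that is not secreted and binds voltage-gated sodium channels inside the cell.

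FGF16 and FGF9 belong to 1 subfamily, together with FGF20, so their reads could be confused if their messages were near copies. The coding sequences of Fgf16 (621 bases without the stop codon) and Fgf9 (624 bases) were identical at 69.0% of 612 aligned positions. The pair of 60-base stretches printed here, read from the GENCODE M21 transcripts on GRCm38, is the most alike gap-free window of that alignment among those that begin with a codon. It is shown as the closest such match within coding sequence, and untranslated parts were not searched for windows. Capitals mark the bases that differ between the genes, 8 of 60.

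Fgf16: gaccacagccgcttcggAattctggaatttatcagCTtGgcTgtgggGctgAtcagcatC
Fgf9: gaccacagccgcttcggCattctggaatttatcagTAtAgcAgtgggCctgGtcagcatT

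The Fgf16 stretch covers coding positions 259 to 318, counted from the A of the start codon. It lies on the plus strand of chromosome X, over the last 16 coding bases of coding exon 1 (105764799 to 105764814) and the first 44 of coding exon 2 (105772518 to 105772561). That of Fgf9 covers coding positions 262 to 321 on the plus strand of chromosome 14 (58073317 to 58073332 and 58083201 to 58083244), across the same exon boundary. The longest run of bases shared by any pair of Fgf16 and Fgf9 transcripts was 25, and by Fgf16 and Fgf20 transcripts 29. Fgf20 had a count of 0 in all 6 libraries.

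Total counts ran from 83642183 to 92666780 per library, so that 3 counts, the limit that a count of 0 allows, came to between 0.0307 and 0.0370 TMM-normalised CPM (a gene's counts relative to its library's scaled total). This limit covers counting error only. Of the 10 genes 9 passed the filter on low counts and entered the edgeR fit over 16707 genes, and Fgf21 did not. In that fit 10.4% of genes, 1743 in all, passed a Benjamini-Hochberg adjusted p of 0.05, 890 higher and 853 lower after Rb2. With library size alone as scaling, in place of the TMM factors, the numbers were 492 higher and 779 lower. Levels are TMM-normalised CPM, as mean ± SD of 3 mice.

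The libraries also differed in transcripts of other cell types. The summed level of 14 skeletal muscle markers was 2286, 7123 and 8.98 CPM in PBS 1, 2 and 4 and 2.40, 435 and 255 CPM in Rb2 1, 3 and 4. The summed level of 12 brown adipocyte markers, all detected, ranged from 16312 to 17618 CPM with PBS and from 13456 to 17746 CPM with Rb2. Endothelial markers (10 genes) summed to between 1642 and 1871 CPM with PBS and between 961 and 1396 CPM with Rb2, mural and smooth muscle markers (12 genes) to between 1007 and 1033 against 782 to 867 CPM, and macrophage markers (10 genes) to between 121 and 151.5 against 80.4 to 110 CPM. Of these 3 lists 4, 3 and 4 genes fell, in that order, and of the brown adipocyte list 2, beside 5.11% of all genes called lower. In whole tissue, fewer cells of a type and less RNA per cell cannot be told apart.

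Of the 9 tested genes 1 passed the threshold, Fgf16, beside 10.4% of all genes tested and 5.33% higher after Rb2. Since the genes were chosen with this comparison known, nothing is read from that count. It was measured at 0.123, 0.124 and 0.388 CPM in PBS 1, 2 and 4, from 10, 12 and 38 counts. In Rb2 1, 3 and 4 it was at 1.36, 0.933 and 1.89 CPM, from 115, 77 and 175 counts. Each Rb2 library lay above each PBS library, with PBS 4 the highest of its group. The means were 0.212 ± 0.153 CPM with PBS and 1.39 ± 0.480 CPM with Rb2, a 6.50-fold difference with a 95% confidence interval of 2.94 to 14.3 (log2 fold change 2.70 ± 0.51 SE, adjusted p = 0.0158). The gene (80903) spans 105764477 to 105776532 on the plus strand of chromosome X in GRCm38.p6, and no other RefSeq gene overlaps it.

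**Figure D1:**
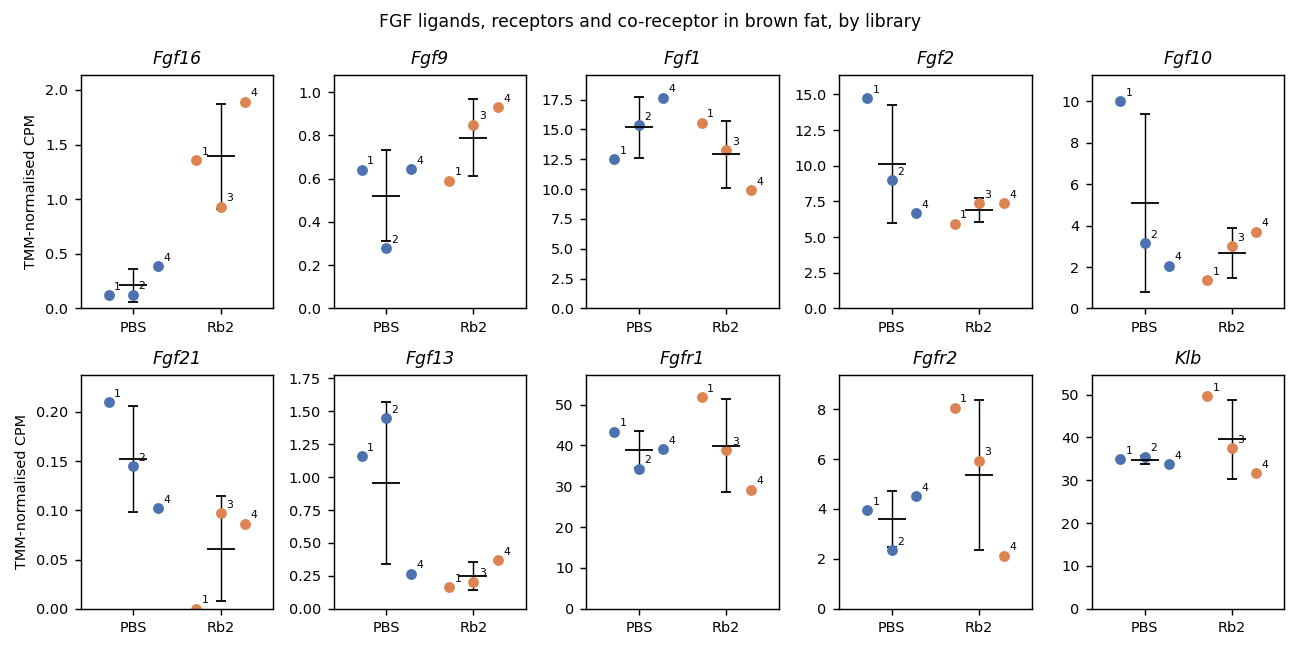
TMM-normalised CPM of each of the 10 genes on a linear axis from 0, with 1 point per library labelled by its number, and the mean and SD of 3 mice per group as black bars. The Rb2 points of Fgf16 lie between 0.933 and 1.89 CPM, above all PBS points, while in the panels of the other genes, apart from Fgf21 with counts of at most 17, the groups overlap.

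The call for Fgf16 depended on which libraries were in the fit. The log2 fold change was 2.44 without PBS 1 (adjusted p = 0.0714), 2.43 without PBS 2 (adjusted p = 0.0598) and 2.72 without Rb2 1 (adjusted p = 0.0608), none of which passed. Calls over the whole table, 1743 with all libraries, were 334, 303 and 548 in those fits, in that order. Fgf16 passed without PBS 4 (3.46, adjusted p = 0.00893), without Rb2 3 (2.92 with an adjusted p of 0.0351) and without Rb2 4 (2.42 with one of 0.0270). With both muscle-rich libraries, PBS 1 and PBS 2, left out its log2 fold change was 1.84, where the single PBS library left has no spread of its own and is given that of the Rb2 mice. With the muscle markers as a covariate it was 2.54 (adjusted p = 0.0190). The direction was the same in all 17 alternative fits. Since the groups did not overlap, leaving libraries out could hardly have changed it, so nothing is read from that count.

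**Figure D2:**
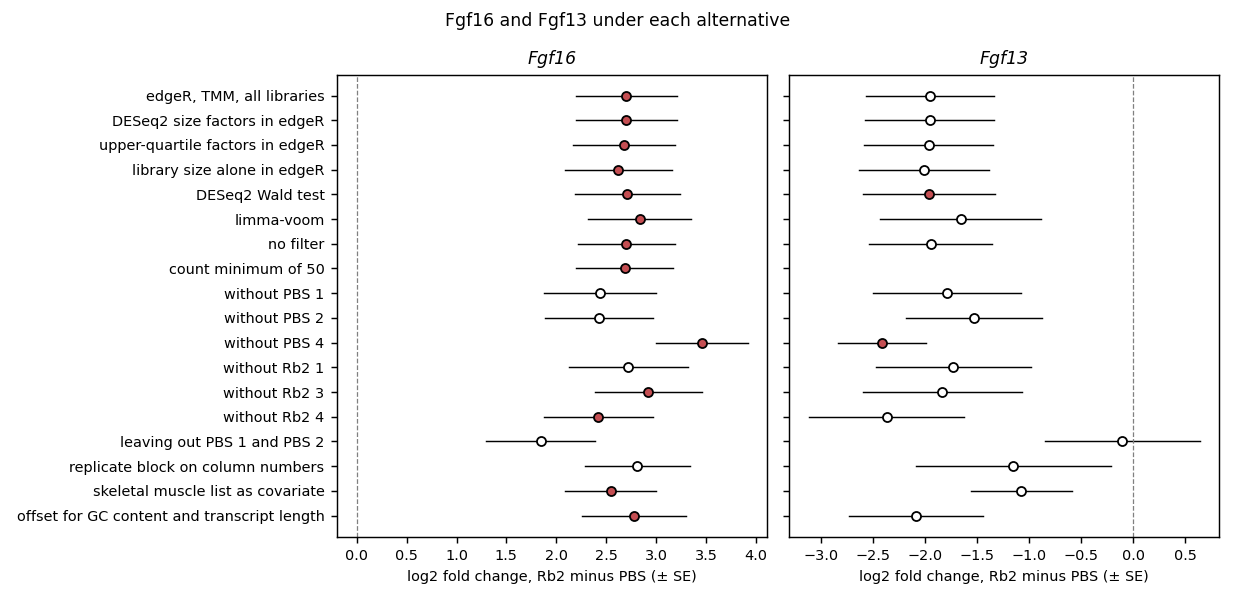
Log2 fold change (Rb2 minus PBS) ± SE of Fgf16 (left) and Fgf13 (right) in the edgeR fit of all libraries and in each alternative, with red points for an adjusted p under 0.05 and open points otherwise. Fgf16 lies between 1.84 and 3.46 throughout, and Fgf13 reaches -0.11 when PBS 1 and PBS 2 are left out together; Fgf13 has no point at the count minimum of 50, where it was not tested.

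By the Pearson r of log2 CPM over the 6 libraries, the 5 genes most like Fgf16 among those with a mean of at least 1 CPM were Gm42274 (r = 0.997), Eml5 (r = 0.996), Pigh (r = 0.994), Shmt1 (r = 0.994) and Arntl2 (r = 0.993). Pigh codes for a subunit of the first enzyme of GPI anchor synthesis, Shmt1 for cytosolic serine hydroxymethyltransferase, and Arntl2 for a paralog of the clock activator BMAL1. Of these, Shmt1 (log2 fold change 1.27, adjusted p = 0.00603), Arntl2 (1.18, adjusted p = 0.0162) and Pigh (0.71, adjusted p = 0.0184) rose. Eml5 (0.42, adjusted p = 0.135) and Gm42274 (0.93, adjusted p = 0.0560) did not pass. The r values come from 6 points, are the highest of all genes searched, and include the difference between the groups.

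Fgf9, the subfamily relative of Fgf16 (chromosome 14, 58070671 to 58112854), was at 0.641, 0.279 and 0.644 CPM in PBS 1, 2 and 4 and at 0.590, 0.848 and 0.929 CPM in Rb2 1, 3 and 4. Rb2 1 lay within the PBS range and the other Rb2 libraries above it. The log2 fold change was 0.60 ± 0.39 SE (95% confidence interval -0.28 to 1.48, adjusted p = 0.329), so a difference was not detectable at a level of 27 to 86 counts per library.

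Fgf1, acidic FGF, was the most abundant ligand and did not pass. It was at 12.5, 15.4 and 17.7 CPM in PBS 1, 2 and 4 and at 15.6, 13.2 and 9.92 CPM in Rb2 1, 3 and 4, with the groups overlapping (log2 fold change -0.23 ± 0.19 SE, 95% confidence interval -0.66 to 0.19, adjusted p = 0.433). It lies inside the span of Arhgap26, a gene on the opposite strand that was at a mean of 19.8 CPM with PBS against 29.3 CPM with Rb2 (adjusted p = 0.168), and has no exon in common with it in GENCODE. It also shares part of its span with Gm5820, which was at a mean of 0.162 CPM with PBS against 0.262 CPM with Rb2 (adjusted p = 0.338).

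Fgf2, basic FGF, and Fgf10 (chromosome 13, 118714699 to 118792573), a mesenchymal ligand of the epithelial form of FGFR2, were both highest in PBS 1. Fgf2 was at 14.7, 8.99 and 6.65 CPM in PBS 1, 2 and 4 and at 5.94, 7.38 and 7.37 CPM in Rb2 1, 3 and 4. Fgf10 was at 10.002, 3.14 and 2.07 CPM in the PBS libraries and at 1.36, 2.99 and 3.72 CPM in the Rb2 libraries. In both genes the groups overlapped, and PBS 4 lay within the Rb2 range. Neither passed: the log2 fold change was -0.55 ± 0.27 SE for Fgf2 (95% confidence interval -1.18 to 0.07, adjusted p = 0.210) and -0.91 ± 0.72 SE for Fgf10 (95% confidence interval -2.75 to 0.92, adjusted p = 0.448). The pair had the highest r of the 36 pairs of tested members (Pearson r of log2 CPM 0.946 over 6 libraries, a description). The fold change of Fgf10 was 0.04 without PBS 1, against -0.91 with it, and that of Fgf2 was -0.18 without PBS 1.

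White adipocyte markers (9 genes, of which Hoxc10 and Wt1 were at 0 in all libraries) summed to 296, 155 and 51.3 CPM in PBS 1, 2 and 4 and to 30.5, 82.7 and 76.2 CPM in Rb2 1, 3 and 4, and were thus also highest in PBS 1. Fibroblast and adipocyte progenitor markers (12 genes) summed to 1129, 1118 and 860 CPM in the PBS libraries and to 590, 618 and 868 CPM in the Rb2 libraries. The part of these cell types in the Fgf2 and Fgf10 values was not tested. Fgf2 (plus strand of chromosome 3, 37348477 to 37410106) overlaps Nudt6 on the opposite strand, with 640 exon bases in common in GENCODE. Nudt6 was at a mean of 11.5 CPM with PBS against 12.2 CPM with Rb2 (adjusted p = 0.784). The library kit marks strand, but the sources used here do not say whether the counting used it, so reads of the shared bases may belong to either gene.

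Fgf21 (minus strand of chromosome 7, 45613890 to 45615490) was near the limit of detection in every library. It had 17, 14 and 10 counts in PBS 1, 2 and 4 and 0, 8 and 8 counts in Rb2 1, 3 and 4, or 0.210, 0.145 and 0.102 CPM against 0, 0.0969 and 0.0865 CPM. The groups did not overlap, but the lowest PBS and the highest Rb2 library were 2 counts apart. The count of 0 in Rb2 1 allows up to 0.0354 CPM. In the fit without a filter its log2 fold change was -1.29 ± 0.97 SE (adjusted p = 0.451), so a difference was not detectable at this depth.

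Genes that regulate Fgf21 or degrade its protein were followed as a list of 12, of which 1 rose and 1 fell (16.7% of the list, beside 10.4% of all genes tested). Ppara, a nuclear receptor that drives Fgf21 in liver, rose from 139 ± 33.4 CPM to 234 ± 30.9 CPM, a log2 fold change of 0.75 ± 0.19 SE (adjusted p = 0.0369). It was called in 2 of the 6 fits with a library left out, and not without PBS 1, PBS 2, Rb2 1 or Rb2 3, nor in limma-voom or with library size alone as scaling. Atf4, the transcription factor of the integrated stress response, fell from 142 ± 19.8 CPM to 68.5 ± 12.2 CPM, a log2 fold change of -1.05 ± 0.17 SE (adjusted p = 0.0102). It was called in 5 of the 6 fits, the exception being that without PBS 1 (adjusted p = 0.0540). The list's median log2 fold change was 0.02, beside -0.01 over all genes tested.

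Fgf13 (minus strand of chromosome X, 59062139 to 59585572) was low in all Rb2 libraries and in 1 PBS library. It was at 1.16 and 1.45 CPM in PBS 1 and 2 and at 0.266 CPM in PBS 4, against 0.165, 0.206 and 0.367 CPM in Rb2 1, 3 and 4. PBS 4 lay between Rb2 3 and Rb2 4. The log2 fold change of -1.95 ± 0.61 SE (95% confidence interval -3.34 to -0.55, not adjusted) did not pass the threshold over all genes (adjusted p = 0.0755). It passed by DESeq2's Wald test (-1.96, adjusted p = 0.0141) and, in edgeR, without PBS 4 (-2.41, adjusted p = 0.0179).

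PBS 1 and PBS 2, high in Fgf13, were also the libraries with the most skeletal muscle transcripts. Without them, which leaves a single PBS library, the log2 fold change of Fgf13 was -0.11. With the muscle markers as a covariate it was -1.07 (adjusted p = 0.213). Nerve and Schwann cell markers (12 genes, 8 of them tested, Dbh at 0 in all libraries) summed to between 92.0 and 244 CPM with PBS and between 105 and 155 CPM with Rb2. Of 10 sodium channel genes and partners that bind homologous factors, 4 were expressed enough to test and none passed in edgeR (beside 10.4% of all genes). There were 0 at an unadjusted p under 0.05, in DESeq2 and in limma-voom, beside 5020, 3309 and 1200 of all 16707 genes. Scn4a, the channel of skeletal muscle, was at 5.69, 19.0 and 0.245 CPM in PBS 1, 2 and 4 and at 0.0944, 1.54 and 0.540 CPM in Rb2 1, 3 and 4 (log2 fold change -3.52 ± 1.84 SE, adjusted p = 0.285). It was highest in the same pair of PBS libraries as Fgf13. So were the summed white adipocyte markers and the summed fibroblast and adipocyte progenitor markers given above. The part of any of these cell types in the Fgf13 values was not tested.

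Of the receptors, Fgfr1 had the highest level and did not pass. It was at 43.3, 34.3 and 39.0 CPM in PBS 1, 2 and 4 and at 51.9, 38.9 and 29.1 CPM in Rb2 1, 3 and 4, with the Rb2 libraries on both sides of the PBS range. The log2 fold change was 0.04 ± 0.20 SE (95% confidence interval -0.41 to 0.49, adjusted p = 0.915), and its sign changed with the scaling and with the library left out. Fgfr2 was at 3.96, 2.36 and 4.52 CPM in the PBS libraries and at 8.05, 5.93 and 2.13 CPM in the Rb2 libraries (0.57 ± 0.50 SE, 95% confidence interval -0.62 to 1.77, adjusted p = 0.479). Rb2 1 and Rb2 3 were above all PBS libraries and Rb2 4 below them.

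Klb, the co-receptor of FGF21 (gene 83379, chromosome 5, 65348411 to 65386957), was at 34.9, 35.5 and 33.7 CPM in PBS 1, 2 and 4 and at 49.6, 37.5 and 31.6 CPM in Rb2 1, 3 and 4. The PBS libraries were close together and the Rb2 libraries lay on both sides of them. The log2 fold change was 0.19 ± 0.16 SE (95% confidence interval -0.18 to 0.55, adjusted p = 0.463). Fgfr1, Fgfr2 and Klb were all highest in Rb2 1 and lowest in Rb2 4. Their pairwise r over the 6 libraries was 0.883 for Fgfr1 and Fgfr2, 0.828 for Fgfr1 and Klb, and 0.788 for Fgfr2 and Klb, given as a description.

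**Figure D3:**
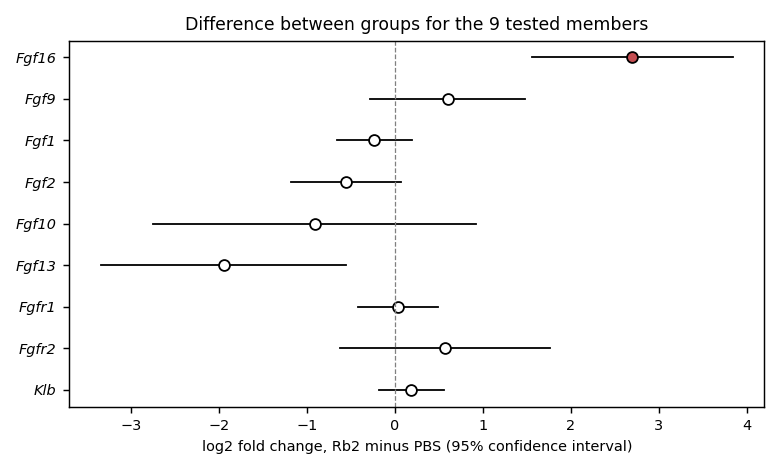
Log2 fold change (Rb2 minus PBS) of the 9 tested genes with its 95% confidence interval, unadjusted; the filled point passed an adjusted p of 0.05 over all genes. Fgf16 lies at 2.70 and the other genes between -1.95 and 0.60.

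No gene of the 9 was called lower in edgeR, beside 5.11% of all genes. At an unadjusted p under 0.05 there was 1 (Fgf13), where 5020 of all 16707 genes passed in either direction. DESeq2 called 1 lower, beside 1623 of all genes, and limma-voom 0, beside 595. The PBS and Rb2 values did not overlap in 1 of the 9, beside 35.8% of all genes tested (18.2% with Rb2 the higher group and 17.6% with Rb2 the lower). The median log2 fold change was 0.04 over the 9 and -0.01 over all genes. These counts and the median describe the 9 genes that passed the filter on low counts and leave out Fgf21.

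Levels can be compared between genes only per length. As CPM per kilobase of exon over the 6 libraries, Klb (5.02) and Fgfr1 (4.08) were the highest, followed by Fgf1 (2.57), Fgf2 (1.28), Fgf10 (0.827), Fgfr2 (0.425), Fgf16 (0.264), Fgf13 (0.150), Fgf21 (0.113) and Fgf9 (0.0979). Over all 6 libraries the range of each gene overlapped that of the next in this order, except that Klb was apart from Fgfr1 with GENCODE lengths. The genes were measured in the same libraries, and differences between neighbours within each library were not tested. Within the PBS libraries Klb, Fgfr1, Fgf1 and Fgf2 were separated from each other, as were Fgf10 from Fgfr2 and, with these lengths only, Fgf21 from Fgf9. The order depends on the exon length used: Fgf16 had 3040 bases with the RefSeq end of the gene and 1645 in GENCODE alone, Klb 7402 and 4549, and Fgf9 6697 and 4649.

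With these lengths Fgf16 had the lowest mean of the 10 genes in PBS libraries (0.0697 CPM per kilobase), with a range that overlapped that of Fgf9, and in Rb2 libraries it was the seventh (0.459), between Fgfr2 (0.508) and Fgf9 (0.118). Its Rb2 range overlapped that of Fgfr2 but not that of Fgf9. These places change with GENCODE lengths alone, an alternative added after the data were seen. The mean of Fgf16 in PBS libraries was then 0.129 CPM per kilobase, above that of Fgf9 (0.112), with overlapping ranges. In Rb2 libraries it was 0.847, the fifth, above Fgf10 (0.585) and Fgfr2 (0.520). Its Rb2 range (0.567 to 1.15) overlapped those of Fgf10 (up to 0.808) and Fgfr2 (up to 0.780).

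Fgf16 was also set against the summed level per length of 8 secreted ligands (the 6 above with Fgf7 and Fgf18). It made up 0.549%, 0.743% and 2.39% in PBS 1, 2 and 4, against 9.34%, 6.08% and 12.4% in Rb2 1, 3 and 4. With GENCODE lengths the share was 0.989%, 1.34% and 4.23% in the PBS libraries and 15.7%, 10.4% and 20.2% in the Rb2 libraries, so its size depends on the length used. Each Rb2 share was above each PBS share with either length. The sum itself was 7.40, 5.50 and 5.35 CPM per kilobase in the PBS libraries and 4.78, 5.05 and 4.997 CPM per kilobase in the Rb2 libraries. The groups were apart with these lengths, but overlapped with GENCODE lengths (5.59 to 7.58 against 5.25 to 5.69 CPM per kilobase).

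**Figure D4:**
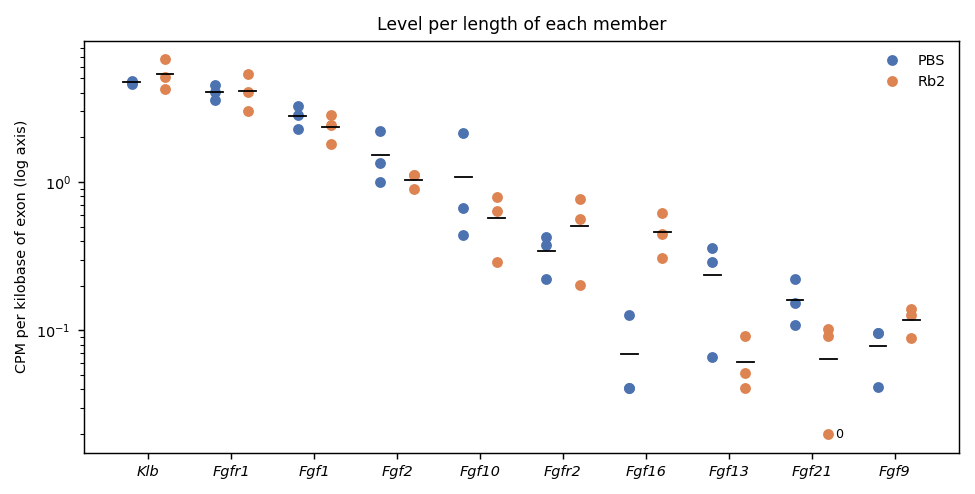
CPM per kilobase of exon on a log axis for the 10 genes, ordered by their mean over 6 libraries, with 1 point per library, black lines for group means, and a count of 0 drawn at the foot of the axis and marked 0. Fgf16 moves from 0.0697 with PBS to 0.459 with Rb2, while Klb, Fgfr1 and Fgf1 are the highest 3 in both groups.

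Other genes of FGF signalling were taken from 7 lists with 114 genes in the table, of which 91 were tested and 4 rose and 8 fell (13.2% called, beside 10.4% of all genes). Without PBS 1 and PBS 2 together, which leaves a single PBS library, each of the 12 kept its direction. The log2 fold changes were then between 0.40 (Ppara) and 1.65 (Myc) or between -2.57 (Flrt1) and -0.46 (Spry1). Of the 15 other ligands and homologous factors 4 were expressed enough to test and none passed in edgeR (beside 10.4% of all genes). There was 1 at an unadjusted p under 0.05, 1 in DESeq2 and 0 in limma-voom, beside 5020, 3309 and 1200 of all 16707 genes. Fgf11, a homologous factor like FGF13, was at a mean of 7.36 ± 0.531 CPM with PBS against 10.1 ± 1.23 CPM with Rb2 without overlap (log2 fold change 0.46 ± 0.15 SE, adjusted p = 0.0754). Fgf14, another one, was at 2.08 ± 0.906 and 2.74 ± 1.28 CPM (adjusted p = 0.544). Fgf3, Fgf5, Fgf8, Fgf15, Fgf20 and Fgf22 had a count of 0 in every library.

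Fgfr3, a receptor for ligands of the FGF9 subfamily, fell from 6.02 ± 0.795 to 2.87 ± 0.488 CPM. It was at 5.88, 6.88 and 5.30 CPM in PBS 1, 2 and 4 and at 3.12, 2.30 and 3.18 CPM in Rb2 1, 3 and 4, so that each Rb2 library was below each PBS library. The log2 fold change was -1.07 ± 0.20 SE (adjusted p = 0.0148), with a range of -1.17 to -0.93 when 1 library was left out. It was called in 3 of these 6 fits and not without PBS 1, PBS 2 or Rb2 3, with an adjusted p of up to 0.0683. As a share of the summed level per length of Fgfr1 to Fgfr4, Fgfr3 made up 14.4%, 20.3% and 14.3% in PBS 1, 2 and 4, against 6.66%, 6.59% and 12.2% in Rb2 1, 3 and 4, while Fgfr1 made up between 74.5% and 78.3% with PBS and between 81.5% and 82.0% with Rb2.

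The other receptor genes did not pass. Fgfr4 was not expressed enough to test, at a mean of 0.0966 CPM with PBS against 0.0423 CPM with Rb2, and neither was Kl, the Klotho co-receptor of FGF23, at 0.0806 and 0.0306 CPM. Fgfrl1, a receptor without a kinase domain, was at 66.7 ± 7.49 and 56.6 ± 6.99 CPM (log2 fold change -0.24 ± 0.14 SE, adjusted p = 0.281). Lctl, a Klotho relative singled out after its values were seen, was at a mean of 26.3 ± 9.74 CPM with PBS against 39.1 ± 9.38 CPM with Rb2 (0.57 ± 0.29 SE, adjusted p = 0.236), with PBS 4 (37.2 CPM) within the Rb2 range.

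Of 23 transducers between the receptor and ERK, all tested, 2 fell and none rose in edgeR (8.70% called, beside 10.4% of all genes tested). At an unadjusted p under 0.05, 2 were higher, where 5020 of all 16707 genes passed in either direction. DESeq2 and limma-voom called 0 higher, beside 1686 and 605 of all genes. Hras, a GTPase between the receptor and the RAF kinases, fell from 47.1 ± 2.93 CPM to 30.5 ± 3.88 CPM, a log2 fold change of -0.62 ± 0.13 SE (adjusted p = 0.0216). It was called in 2 of the 6 fits with a library left out, and not without PBS 1, PBS 2, Rb2 1 or Rb2 3. Frs2, the docking protein that FGF receptors phosphorylate, was at 10.4 ± 0.971 and 14.6 ± 3.12 CPM (0.49 ± 0.17 SE, adjusted p = 0.0872). The median of the list was 0.06.

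Feedback and target genes of the pathway went both ways, with 3 of 19 tested higher and 2 lower (26.3% called, beside 10.4% of all genes). Etv1, an ETS transcription factor of the PEA3 group, rose from 1.13 ± 0.109 CPM to 3.07 ± 0.424 CPM, a log2 fold change of 1.44 ± 0.22 SE (adjusted p = 0.00891) and was called in all 6 fits with a library left out. Myc rose from 1.002 ± 0.116 CPM to 3.57 ± 1.39 CPM, a log2 fold change of 1.83 ± 0.31 SE (adjusted p = 0.0113), but did not pass without PBS 1 or PBS 2. Etv5, a relative of Etv1, was at 2.68 ± 0.547 and 2.71 ± 0.337 CPM (adjusted p = 0.971). Etv4 was not expressed enough to test, at 0.0689 and 0.0539 CPM. Dusp6, the ERK phosphatase, was at 34.3 ± 7.48 and 34.5 ± 17.6 CPM (adjusted p = 0.992).

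The Sprouty genes, inhibitors that receptor tyrosine kinases induce against their own signal, did not move as 1 group. Spry2 was at 5.33, 5.02 and 5.19 CPM in PBS 1, 2 and 4 and at 10.05, 8.43 and 8.04 CPM in Rb2 1, 3 and 4, and rose (log2 fold change 0.77 ± 0.15 SE, adjusted p = 0.0166). Spry1 was at 17.6, 24.3 and 16.9 CPM in the PBS libraries and at 14.2, 11.3 and 11.4 CPM in the Rb2 libraries, and fell (-0.67 ± 0.17 SE, adjusted p = 0.0381). Spry4 was at 13.99 ± 3.09 and 7.67 ± 2.74 CPM without overlap and did not pass (-0.87 ± 0.29 SE, adjusted p = 0.0908). Spry2 was called in 3 of the 6 fits with a library left out, not without PBS 1, PBS 2 or Rb2 1, and Spry1 in 1 of them, that without PBS 4. Spry1 was also not called in limma-voom, with the muscle covariate or with GC content and length as an offset. Flrt1, named because it completes the 5 calls, fell from 0.353 ± 0.175 CPM to 0.0853 ± 0.0207 CPM, a log2 fold change of -2.03 ± 0.56 SE (adjusted p = 0.0474) and was called in none of the 6 fits (adjusted p between 0.0663 and 0.147).

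Of 26 tested genes of heparan sulfate, its core proteins and FGF carriers, 2 fell and none rose in edgeR (7.69% called, beside 10.4% of all genes tested). At an unadjusted p under 0.05, 2 were higher, where 5020 of all 16707 genes passed in either direction. DESeq2 called 1 higher and limma-voom 0, beside 1686 and 605 of all genes. Hspg2, perlecan of the basement membrane, fell from 323 ± 50.1 CPM to 178 ± 27.9 CPM, a log2 fold change of -0.86 ± 0.17 SE (adjusted p = 0.0188). It was not called without PBS 2, Rb2 1 or Rb2 3, or with GC content and length as an offset. Sdc3, a syndecan, went from 68.1 ± 6.24 CPM to 44.0 ± 10.8 CPM, a log2 fold change of -0.63 ± 0.17 SE with an adjusted p of 0.0499 in edgeR, and was called in 1 of the 6 fits, that without Rb2 4. It was also not called with upper-quartile factors, library size alone, limma-voom, no filter, the muscle covariate or the GC and length offset (adjusted p between 0.0533 and 0.141). The summed endothelial and mural markers given above were lower in each Rb2 library than in any PBS library as well. Their part in the lower Hspg2 was not tested.

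**Figure D5:**
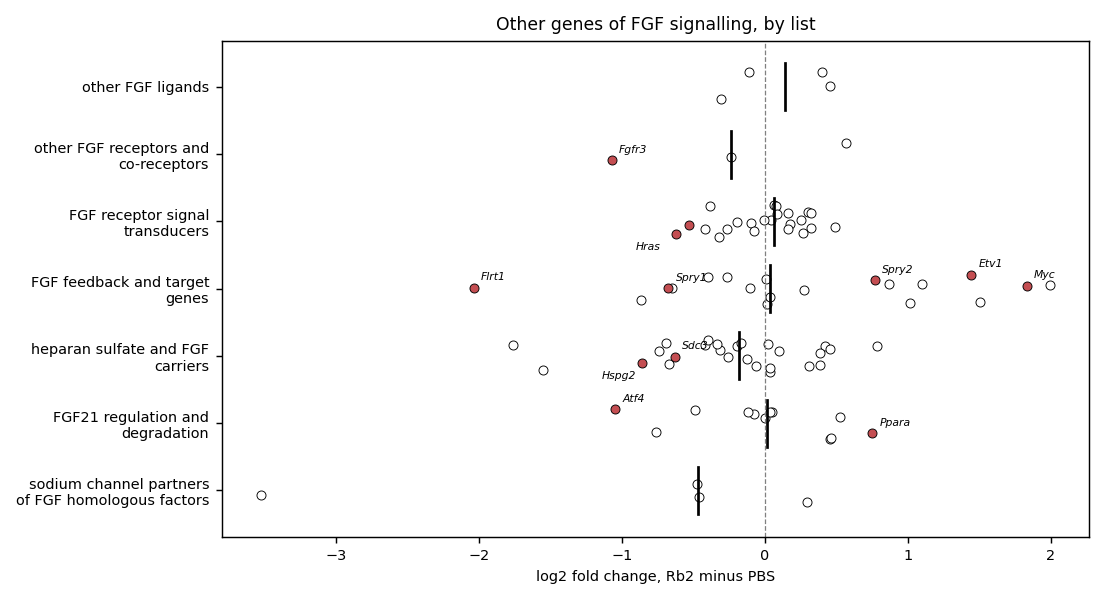
Log2 fold change (Rb2 minus PBS) of the 91 tested genes of the 7 other FGF lists, 1 point per gene with vertical scatter for legibility, filled where the adjusted p was under 0.05, with symbols at the called genes named in the text, and a vertical bar for each list's median. The medians lie between -0.47 (sodium channels, 4 genes) and 0.14 (other ligands, 4 genes), and called genes lie on both sides of 0 among the feedback and target genes and among those of Fgf21 regulation.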

How the data were processed

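Brown fat RNA was purified on columns and made into poly(A) libraries with a strand-marking kit, per the labels' protocols. Values are raw read counts per gene, which the authors deposited as 1 table. The submitters' processing notes name Trimmomatic, HISAT2, Bowtie2, StringTie and mm10, with no versions; neither the counter nor its strand setting is given in the sources used here. The labels give the groups (3 mice each), but the numbers in the column names could not be tied to single samples.

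Genes with too few counts (edgeR filterByExpr, count minimum 10, total minimum 15) were left out. Rb2 and PBS were compared by edgeR 4.0.16 quasi-likelihood tests (TMM scaling, robust, R 4.3.3) over all 16707 remaining genes, with Benjamini-Hochberg adjustment and a threshold of 0.05. SEs are the log2 fold change over the square root of F, and confidence intervals are unadjusted. DESeq2 1.42.0, limma-voom (limma 3.58.1), other scalings, filters and libraries left out were alternatives, and the fit was tested on simulated data. There it called 36 of 96 genes changed 2-fold and 77 of 97 changed 4-fold in the right direction. Of all 127 simulated calls 14 were unchanged genes. Levels per length use GENCODE M21 exons, with terminal exons extended by up to 5000 bases to the RefSeq gene's end. Subfamily sequences were aligned with Biopython 1.88.

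The 10 genes, the pathway lists and the marker lists were chosen with earlier results of these data known. The text names all 10, a few preset regulators and receptors, and from each list up to 4 called genes with the smallest p (up to 2 where none was called); Spry3 was not used here, as its symbol was not matched. Results of 2 genes that these rules name are not reported here.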

Additional observations from a re-analysis of the deposited data

How the results depend on the processing

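Fgf1, Fgf9, Fgf16 and Fgf13 had the same direction in every alternative in which they were tested (17 each, 16 for Fgf13, which was not tested at a count minimum of 50). For Fgf16, whose groups did not overlap, leaving libraries out could hardly have changed it. The other 5 tested genes each changed sign in at least 1 alternative. Fgfr1 was at -0.0512 with library size alone, -0.0808 with the replicate block and -0.12 with the muscle covariate, and ranged from -0.19 (without Rb2 1) to 0.22 with 1 library left out, with -0.0466 without PBS 2. Fgf10 ranged from -1.30 to 0.0441, the latter without PBS 1, and was at 0.38 without PBS 1 and PBS 2 together, where Fgf2 was at 0.0528. Klb ranged from -0.0045 (without Rb2 1) to 0.32, and Fgfr2 was at -0.0247 with the replicate block. The cause was not tested.

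The number of genes called over the table, 1743, was 3309 in the DESeq2 Wald test, 3392 at an adjusted p under 0.1, 910 with the muscle covariate, and between 303 (without PBS 2) and 2269 (without Rb2 4) with 1 library left out. It was 334 without PBS 1, 548 without Rb2 1 and 601 without Rb2 3. Without PBS 1 and PBS 2, with fewer samples and a lone PBS library assumed to vary like the Rb2 libraries, edgeR called 0 (2063 at an unadjusted p under 0.05). Of the FGF genes, 9 of which were tested, 2 were called by DESeq2 and at an adjusted p under 0.1, between 0 and 2 with 1 library left out (10 were tested without PBS 4, Rb2 1, Rb2 3 or Rb2 4, where Fgf21 passed the filter), and 0 without PBS 1 and PBS 2 (edgeR, 1 at an unadjusted p under 0.05). Of the 91 tested genes of the other FGF lists 12 were called. The count was 19 in DESeq2, 22 at an adjusted p under 0.1, between 2 and 14 with 1 library left out, and 0 without PBS 1 and PBS 2 (edgeR, 15 at an unadjusted p under 0.05).

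With the numbers in the column names (1 and 4 occur in both groups) as a replicate block, edgeR called 96 genes, 0 FGF genes (1 at an unadjusted p under 0.05; Fgf16 at 2.81, adjusted p = 0.0785) and 0 genes of the other lists (15 at an unadjusted p under 0.05). Deviations of same-numbered libraries from their group means correlated at -0.20 and -0.22. Those of differently numbered ones correlated at 0.51 (PBS 4 and Rb2 1) and 0.03 (PBS 1 and Rb2 4). What the numbers stand for is not given in the sources used here, and a shared batch was not tested. The GC and length offset covered 93.6% of tested genes. Depth limits what can be said of Fgf21, Fgf9, Fgf16 and Fgf13, with at most 175 counts in a library.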
